A study of Mus musculus with 6 samples.

Results

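The mitochondrial ribosomal protein genes were examined in iPSC constructs loaded with intermittent compressive force (ICF). They were taken as the protein-coding mouse genes whose symbol is Mrpl or Mrps followed by a number, and 78 of the 50686 genes in the count files met this rule. By the letter in the symbol, 49 belong to the large subunit (Mrpl) and 29 to the small subunit (Mrps). The constructs were embryoid bodies of mouse iPSCs reprogrammed from gingival fibroblasts, treated with retinoic acid while they formed and then attached to gelatin-coated plates. In the ICF group (3 samples), a force of 1.5 g/cm2 at 0.23 Hz was applied for 24 h in serum-free medium. The control group (3 samples) was prepared the same way and kept without load for 24 h. The labels number the samples of each group as donors 1 to 3, the methods describe independent experiments, and the strain and age of the source animals are not given in the sources used here.

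Mitochondria carry their own ribosome, which translates the few proteins encoded by mitochondrial DNA, all of them subunits of the respiratory chain and the ATP synthase. Its ribosomal RNAs come from the mitochondrial genome, whereas all of its proteins are encoded in the nucleus, translated in the cytosol and imported. Some of these proteins descend from those of the bacterial ribosome and others were added in mitochondria. The symbols do not always match the place of a protein. Mrps30 and Mrps18a are named for the small subunit but sit in the large one, and Mrps36 belongs to the 2-oxoglutarate dehydrogenase complex rather than to the ribosome. Pluripotent cells are known to rely largely on glycolysis, and their mitochondria mature as the cells differentiate.

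Each sample held 28711166 to 34194413 counted reads. The third ICF sample stood apart, since 88.99% of its nonzero counts could be divided evenly by 4, which held for 20.34% to 21.54% in the remaining libraries, and fewer genes had any count (20802 against 24340 to 24889). Calls of the genes and lists below are also given without it where they change. Pluripotency markers were abundant in both groups, with a summed level of 4313 to 5121 CPM (counts scaled to the TMM-normalized library size) in the control and 3988 to 4422 CPM with ICF, and of these 12 markers Tdgf1 fell while the others, Pou5f1, Sox2 and Nanog among them, did not pass the test. The 11 markers of immature mesenchyme summed to 408.9 to 453.4 CPM in the control and 478.6 to 496.3 CPM with ICF, and 3 of them rose (Col1a1, Col3a1 and Eng), of which Col3a1 did not pass without the third ICF sample (adjusted p = 0.0696). Of the 7 fibroblast markers (109.4 to 150.9 CPM in the control, 108.4 to 143.5 CPM with ICF), Lum, Postn and Fap were below 1 CPM. Neuroectoderm markers summed to 191 to 203 CPM in the control and 172 to 193 CPM with ICF. In the fit without a block, Otx2 did not pass (adjusted p = 0.115) and fell when the third ICF sample was left out (9.34e-04). It also fell with all 6 samples when the replicate number was fitted as a block (adjusted p = 1.58e-05). For the other lineages, endoderm markers summed to 962 to 1185 CPM and 1091 to 1289 CPM (Sox17 fell, with an adjusted p of 0.0445, and 0.0705 without the third ICF sample), and cardiomyocyte markers to 4.76 to 5.82 CPM and 7.96 to 9.67 CPM (Tnnt2 rose and Myl7 fell). Myh6 was below 1 CPM in every sample, and Myl7, Nkx2-5 and Actc1 were below 1 CPM on average in each group. Myl7 had only 26 to 30 reads in the control and 10 to 13 with ICF. Apart from that block result for Otx2, these calls are from the fit without a block. With the block, Dppa5a, Klf4, Utf1, Pdpn and Tubb3 also fell, and Twist1, Col1a2, Nes, Map2, Gata6 and Dab2 also rose. In that fit 14.6% of all genes rose and 15.3% fell. The part of these marker shifts in the results below was not tested, and in such bulk samples fewer cells of a type and less RNA per cell cannot be told apart.

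All but 1 of the 78 genes passed the filter on low counts, and the sequences upstream of the genes that stood out are shown first. They are the 4 genes that rose with ICF (Mrpl20, Mrpl49, Mrps2 and Mrps6), the gene with the lowest log2 fold change (Mrpl57), and Mrpl22 as an example with matches to motifs of NRF1 and of ETS factors, which are known to control genes for mitochondrial proteins. The choice was made after the values were seen. The sequences are from RefSeq on GRCm38.p6 and run 5′ to 3′ toward the start site on the strand of the gene, and bases inside a GENCODE gene were left out. Capitals mark matches on either strand to GCGCATGC (NRF1), CCGGAAG (ETS), AAGATGGC (YY1) and CACGTG, the E-box. They also mark ACGTG, the core of a hypoxia response element that the E-box contains, the letters CCAAT of the box of that name, TATAAA for the TATA box and GGGCGG for the GC box.
Mrpl20: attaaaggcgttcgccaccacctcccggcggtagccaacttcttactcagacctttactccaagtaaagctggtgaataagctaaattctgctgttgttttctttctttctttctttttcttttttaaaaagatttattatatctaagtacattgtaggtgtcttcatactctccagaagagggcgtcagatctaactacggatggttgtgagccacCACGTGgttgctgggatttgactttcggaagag
Mrps2: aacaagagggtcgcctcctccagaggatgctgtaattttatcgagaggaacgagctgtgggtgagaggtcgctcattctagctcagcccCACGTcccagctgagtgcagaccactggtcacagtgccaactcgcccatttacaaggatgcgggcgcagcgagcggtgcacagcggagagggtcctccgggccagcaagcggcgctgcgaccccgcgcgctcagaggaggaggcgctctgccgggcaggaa
Mrps6: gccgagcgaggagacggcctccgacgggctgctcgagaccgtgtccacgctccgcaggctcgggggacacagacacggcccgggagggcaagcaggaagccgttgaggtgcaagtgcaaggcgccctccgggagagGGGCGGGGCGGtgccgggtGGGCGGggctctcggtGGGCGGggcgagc
Mrpl49: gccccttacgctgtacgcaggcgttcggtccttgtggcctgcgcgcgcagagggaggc
Mrpl57: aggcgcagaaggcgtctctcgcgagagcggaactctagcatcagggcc
Mrpl22: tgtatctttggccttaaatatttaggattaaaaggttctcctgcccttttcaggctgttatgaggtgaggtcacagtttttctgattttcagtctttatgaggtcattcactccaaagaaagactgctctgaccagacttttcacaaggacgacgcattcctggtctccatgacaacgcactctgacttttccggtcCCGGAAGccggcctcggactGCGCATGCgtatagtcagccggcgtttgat
These stretches lie at chr4:155802628-155802877 on the plus strand for Mrpl20, chr2:28467816-28468065 on the plus strand for Mrps2 and chr16:92058086-92058269 on the plus strand for Mrps6. Those of Mrpl49 (chr19:6057786-6057843, minus strand) and Mrpl57 (chr14:57826186-57826233, plus strand) are the whole interval to the start of a neighbour transcribed the other way, Fau and Ska3, respectively. The stretch of Mrpl22 is at chr11:58171414-58171660 on the plus strand.

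The windows of 250 bases upstream of the RefSeq start were found for 69 of the 78 genes. The NRF1 letters occurred in 8 of these 69 (11.6%), against 3.15% of the 16522 protein-coding windows and 4.37% of those of the genes tested. The ETS letters occurred in 16 (23.2%, against 9.53% and 13.3%), and the YY1 letters in 4 (5.8%, against 1.49% and 1.89%). In contrast, the E-box was about as frequent as elsewhere (7.25%, against 6.78% and 8.3%), as was the CCAAT box (36.2%, against 36.1% and 36.8%). The hypoxia response core was found in 18.8% (17.9% and 21.5%), the GC box in 47.8% (44.4% and 59.5%) and the TATA box in 5.8% (11.9% and 6.47%). None of the windows of Mrpl20, Mrpl49, Mrps2 and Mrps6 held the NRF1, ETS or YY1 letters. That of Mrpl20 held an E-box 33 to 28 bases before the start, and that of Mrps6 held 4 GC boxes between 114 and 74 bases before it. The window of Mrps2 held the hypoxia response core 161 to 157 bases before the start. In Mrpl49 this core lay 178 to 174 bases and GC boxes 110 to 105 and 90 to 85 bases before the start, not within the printed stretch. In Mrpl22 the ETS letters lay 53 to 47 and the NRF1 letters 33 to 26 bases before the start. Letter matches are a description and say nothing of whether a factor binds.

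The genes lie on 17 chromosomes. Many start close to another gene, since 33 of 78 (42.31%) had an oppositely transcribed protein-coding gene starting within 1000 bases of their own start. This share was 14.89% for all protein-coding genes tested, and both shares include pairs that overlap at their 5′ ends. Mrpl46 and Mrps11, a protein of each subunit, overlap in this way, with their starts 412 bases apart. Other partners also encode mitochondrial proteins. Among them are Ndufs6, a subunit of complex I, 29 bases from Mrpl36, and the mitochondrial seryl-tRNA synthetase gene Sars2, 172 bases from Mrps12. The helicase gene Twnk overlaps Mrpl43, with starts 779 bases apart. The genes are short, with a median exonic length (the exons of all annotated transcripts of a gene joined) of 2394 bases against 4378 bases for protein-coding genes tested.

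Per exonic length, levels differed far more among the genes than between the groups. The highest TPM-like levels (counts per kilobase of exon, scaled to 1 common sum in every sample) in the control were those of Mrpl34 (266 ± 31.0, SD, n = 3), Mrpl2 (262 ± 8.74) and Mrpl12 (229 ± 14.1), which encodes the stalk protein that recruits translation factors. The SDs of Mrpl34 and Mrpl2 overlapped, and so did those of Mrpl12 and the next gene, Mrps24 (226 ± 9.84). Mrps24 encodes the homolog of a bacterial protein at the mRNA entry side of the small subunit. The lowest levels were those of Mrpl32 (15.6 ± 1.12), Mrpl48 (10.4 ± 0.153) and Mrpl53 (0.278 ± 0.130). This order depends on the joined exons of all annotated transcripts, which can be longer than the mRNA present. In control CPM, Mrpl48 (25.8, 8152 bases) was near Mrpl41 (23.9, 888 bases, TPM-like level 88.5). The lowest control CPM of a tested gene was that of Mrps33 (8.28). Mrpl53 had 0 to 3 reads in each sample and was not tested. Of the 75-base stretches of its longest transcript, 73.7% also occur in Gm42688, an overlapping gene, and counting by HTSeq discards reads that overlap several genes. Its low level therefore cannot be told apart from this loss of reads. Some other genes also share reads with copies or overlapping genes, namely Mrps34 (36.9% of stretches, with Nme3), Mrpl22 (26.9%), Mrps18b (26.7%), Mrps36 (25.2%), Mrpl27 (22.9%) and Mrps33 (16.7%), and their levels are uncertain. The share was 6.53% for Mrps6 and under 10% for the remaining genes. These shares are for the same strand. On the opposite strand the highest were those of Mrps25 (72.95%), Mrps34 (53.37%), Mrps18b (50.25%), Mrpl19 (39.42%) and Mrpl24 (34.78%). Whether such reads were lost depends on the counting options, which are not given.

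**Figure D1:**
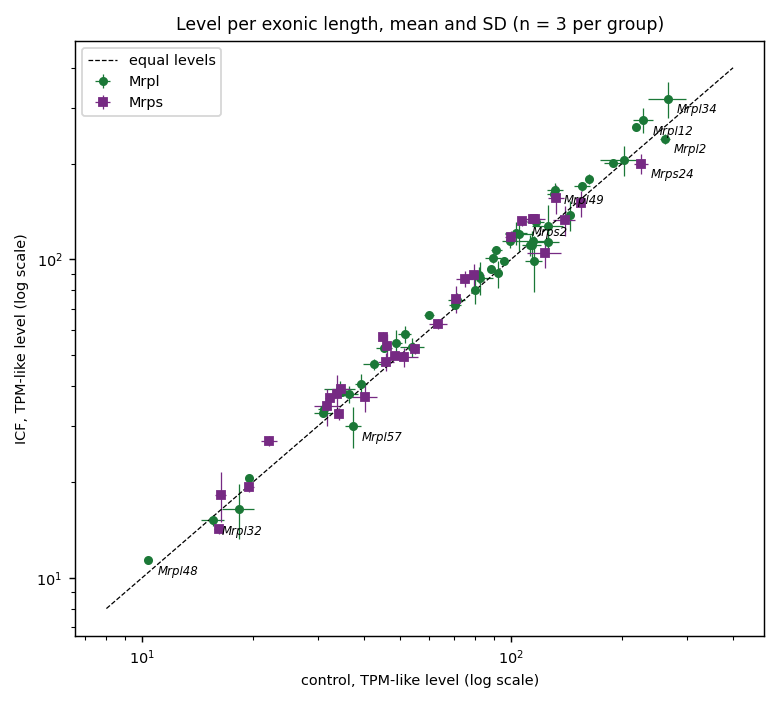
TPM-like level of each of the 77 tested genes in the control (x axis) and with ICF (y axis), both on log scales, as mean and SD of 3 samples. Mrpl (circles) and Mrps (squares) genes lie close to the dashed line of equal levels, from Mrpl48 near 10.4 to Mrpl34 near 266 in the control.

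Summed over the 78 genes, these mRNAs made up 0.436% to 0.469% of counted reads in the control and 0.456% to 0.496% with ICF. The sum was 4560 ± 211 CPM in the control and 4725 ± 191 CPM with ICF (SD, n = 3), and the samples overlapped. Large-subunit genes contributed 3057 ± 152 CPM in the control and 3193 ± 130 CPM with ICF, and small-subunit genes 1503 ± 59.1 CPM and 1532 ± 60.6 CPM. Per length, the large subunit summed to 2.28, 2.27 and 2.21 times the small subunit in control samples 1 to 3, and to 2.31, 2.31 and 2.28 times in ICF samples 1 to 3. The third ICF sample equalled the first control sample to the digits shown.

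The comparison of ICF with control asks whether load changed these mRNAs. Changes were small. By edgeR's quasi-likelihood test with Benjamini-Hochberg adjustment over 16729 genes, 4 of the 77 genes tested rose with ICF and 0 fell, while 18 (23.4%) had an unadjusted p under 0.05, against 25.6% of all genes. Across all genes tested, 3.47% rose and 4.38% fell, so that the share of 4 in 77 is near the background. The 77 log2 fold changes ranged from -0.36 to 0.30, 64 of them were within 0.2 of 0, and their median was 0.051, compared with 0.003 for all genes. The log2 fold change was above 0 in 49 genes and below 0 in 28. The median standard error of a difference was 0.075 on the log2 scale.

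**Figure D2:**
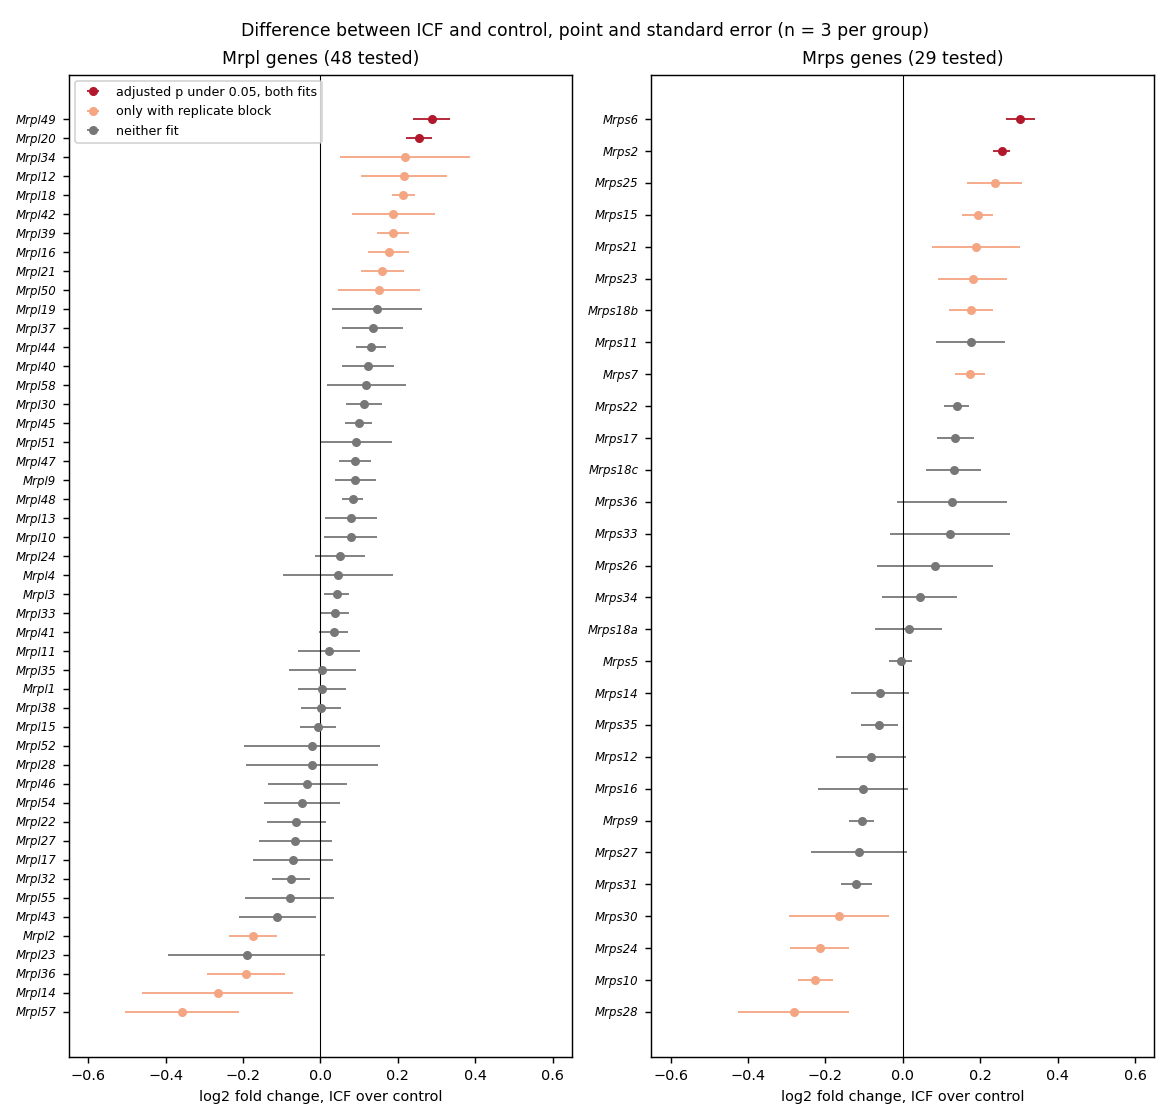
Log2 fold change of ICF over control for each tested Mrpl (left) and Mrps (right) gene, with the standard error from the spread of 3 samples per group. Red points passed the test in both fits (Mrpl49, Mrpl20, Mrps6 and Mrps2), light points only in the fit with the replicate number as a block, and grey points in neither, and points lie on both sides of 0 in each panel.

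In the large subunit, Mrpl49 and Mrpl20 rose. Mrpl49 (ENSMUSG00000007338, chr19:6053622-6057785) encodes a protein of the mitochondrial ribosome that has no bacterial counterpart. Its levels were 75.8, 72.2 and 77.4 CPM in control samples 1 to 3 and 88.3, 90.7 and 96.4 CPM in ICF samples 1 to 3. All ICF samples were above all control samples, a 1.22-fold rise (log2 fold change 0.29, SE 0.048, adjusted p = 0.0279). Mrpl20 (ENSMUSG00000029066, chr4:155802878-155809975) encodes the homolog of the bacterial protein L20, an early binder in large-subunit assembly. It had 66.1, 64.9 and 67.7 CPM in the control and 75.9, 81.1 and 80.1 CPM with ICF. The groups did not overlap, and the fold was 1.19 (SE 0.034 on the log2 scale, adjusted p = 0.0362).

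In the small subunit, Mrps2 and Mrps6 rose. Mrps2 (ENSMUSG00000035772, chr2:28468066-28471178) encodes the homolog of bacterial S2. Its levels were 94.6, 97.2 and 94.4 CPM in the control and 116, 112 and 114 CPM with ICF. This gene had the narrowest spread of the 4, and its fold was 1.19 (SE 0.021 on the log2 scale, adjusted p = 0.0263). Mrps6 (ENSMUSG00000039680, chr16:92058270-92112227) encodes the homolog of bacterial S6. It had 21.9, 20.6 and 20.4 CPM in the control and 25.7, 25.4 and 26.7 CPM with ICF, a 1.23-fold rise (log2 fold change 0.30, SE 0.038, adjusted p = 0.0419). With any 1 of control samples 1 and 2 or ICF samples 1 and 2 left out, 0 of the 77 genes passed, while the calls over all genes fell to 85 to 232 higher and 215 to 349 lower. Without the third control sample 3 passed (Mrps6 was lost), and without the third ICF sample Mrpl20, Mrpl49 and Mrps2 passed with Mrpl18 in place of Mrps6.

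The donor numbers link the samples of the 2 groups, and fitting the replicate number as a block gave many more calls. With the replicate block, 18 genes rose and 8 fell, against 14.6% higher and 15.3% lower among all genes. These shares are 23.4% and 10.4% of the 77. In the large subunit, Mrpl12, Mrpl16, Mrpl18, Mrpl20, Mrpl21, Mrpl34, Mrpl39, Mrpl42, Mrpl49 and Mrpl50 rose, and Mrpl2, Mrpl14, Mrpl36 and Mrpl57 fell. In the small subunit, Mrps2, Mrps6, Mrps7, Mrps15, Mrps18b, Mrps21, Mrps23 and Mrps25 rose, and Mrps10, Mrps24, Mrps28 and Mrps30 fell. Without replicate 3 of both groups, this fit gave 13 higher and 5 lower, and 12.8% higher and 14.0% lower over all genes. A count that needs no model gave 20 genes with all ICF samples above all control samples and 6 with all below, 26.0% and 7.79% of the 77, and 51 overlapped. Over all genes these shares were 15.6% and 15.7%.

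Mrpl12 and Mrpl34, both abundant, illustrate the difference between the fits. Mrpl34 had 55.9, 50.2 and 42.1 CPM in control samples 1 to 3 and 57.9, 65.3 and 49.2 CPM in ICF samples 1 to 3. Sample 3 was the lowest of each group, the groups overlapped, and each ICF sample was above its same-numbered control (log2 fold change 0.22, SE 0.17, adjusted p = 0.319, and 0.00833 with the block). Mrpl12 had 114, 109.5 and 96.6 CPM in the control and 124, 136 and 112 CPM with ICF. Again sample 3 was the lowest of each group, and the adjusted p was 0.174 without and 0.00188 with the block (log2 fold change 0.22, SE 0.11). Mrpl18, whose protein is known to carry 5S rRNA into mitochondria, had 95.8, 92.1 and 91.1 CPM in the control and 107, 110.8 and 105.8 CPM with ICF. The groups did not overlap, and the adjusted p was 0.0535, just outside the threshold (log2 fold change 0.21, SE 0.03).

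The other small-subunit genes with the largest positive log2 fold changes were Mrps25, Mrps15 and Mrps21. Mrps25 encodes a protein specific to mitochondria and had 48.1, 43.4 and 41.6 CPM in the control and 52.6, 54.3 and 49.98 CPM with ICF. Its groups did not overlap (log2 fold change 0.24, SE 0.071, adjusted p = 0.0887, and 0.00331 with the block). Mrps15, the homolog of bacterial S15, went from 50.5, 53.0 and 51.5 CPM to 57.0, 58.4 and 61.7 CPM, again without overlap (log2 fold change 0.19, SE 0.04, adjusted p = 0.0954). Mrps21, the homolog of bacterial S21, had 31.3, 30.9 and 27.3 CPM in the control and 35.1, 37.2 and 29.8 CPM with ICF, and these overlapped (log2 fold change 0.19, SE 0.11, adjusted p = 0.276).

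No gene fell in the fit without the block, and the lowest log2 fold change was that of Mrpl57, a small protein specific to the mitochondrial large subunit. Mrpl57 had 35.9, 33.98 and 31.0 CPM in control samples 1 to 3 and 26.9, 29.9 and 21.8 CPM in ICF samples 1 to 3. The third ICF sample was the lowest and the groups did not overlap, with a fold of 0.780 (log2 fold change -0.36, SE 0.15, adjusted p = 0.0969, and 2.08e-04 with the block). Without the third ICF sample its log2 fold change was -0.24. Mrpl14, the homolog of bacterial L14 at the subunit interface, had 35.2, 34.4 and 30.4 CPM in the control and 30.3, 31.7 and 21.2 CPM with ICF. Here too the third ICF sample was the lowest, and the log2 fold change of -0.27 (SE 0.20, adjusted p = 0.289, and 0.0043 with the block) became -0.099 without it. Mrpl36, Mrpl23 and Mrpl2 had log2 fold changes of -0.19, -0.19 and -0.17, and their adjusted p-values were 0.222, 0.473 and 0.149. With the block they were 0.0219, 0.0638 and 0.0138, so Mrpl23 passed in neither fit.

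In the small subunit, Mrps10 and Mrps24 had lower levels in every ICF sample than in any control sample. Mrps10, the homolog of bacterial S10, had 41.7, 39.7 and 37.6 CPM in the control and 34.6, 33.1 and 34.1 CPM with ICF (log2 fold change -0.23, SE 0.046, adjusted p = 0.0819). Mrps24 had 104.5, 96.2 and 101.7 CPM in the control and 82.6, 95.0 and 82.8 CPM with ICF (log2 fold change -0.21, SE 0.076, adjusted p = 0.108). Mrps28 is the mitochondrial counterpart of bacterial S1, and it had 33.2, 29.8 and 25.5 CPM in the control and 25.3, 26.2 and 21.3 CPM with ICF. Its groups overlapped, and each ICF sample was below its same-numbered control (log2 fold change -0.28, SE 0.14, adjusted p = 0.172). With the block, the adjusted p-values of Mrps10, Mrps24 and Mrps28 were 0.00839, 0.00404 and 0.00309. Mrps31 had a log2 fold change of -0.12 and passed in neither fit (adjusted p = 0.276, and 0.134 with the block).

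**Figure D3:**
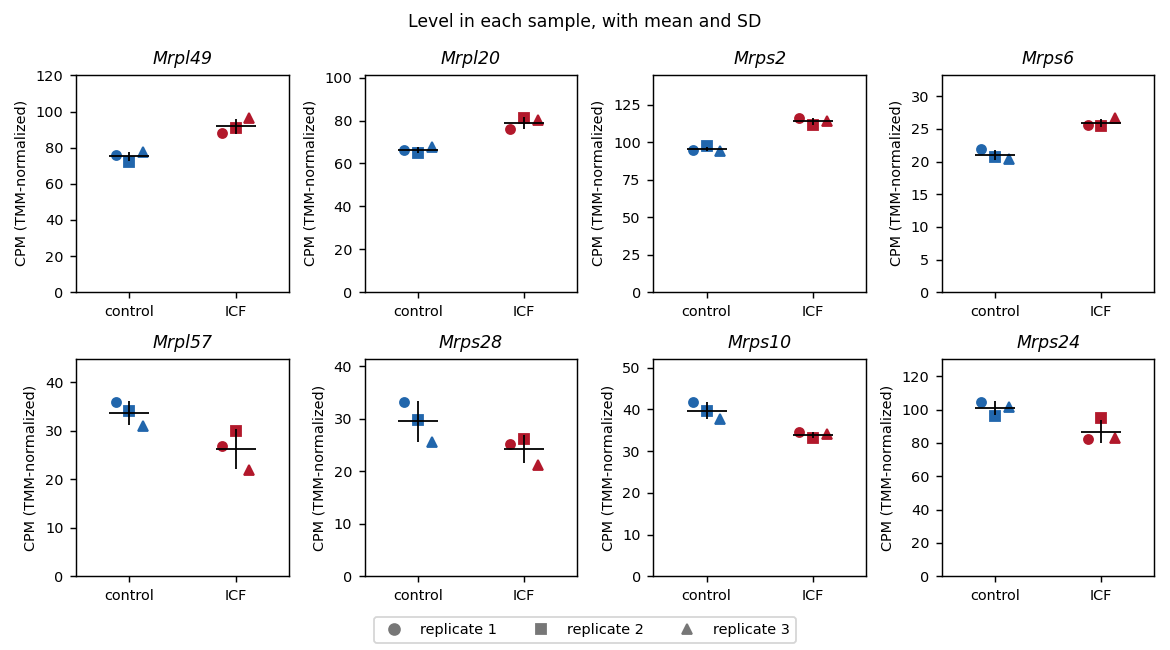
TMM-normalized CPM in each control (blue) and ICF (red) sample of the 4 genes that rose (upper row) and 4 of the genes with the lowest log2 fold changes (lower row). Marker shapes give the replicate number, and bars the mean and SD. In the upper row every ICF sample lies above every control sample, and in Mrps28 the groups overlap.

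Genes whose symbol and place differ were followed separately. Mrps30 had 86.7, 86.4 and 72.3 CPM in the control and 75.6, 79.4 and 63.8 CPM with ICF. Sample 3 was the lowest of each group, and the log2 fold change was -0.16 (SE 0.13, adjusted p = 0.354, and 0.0191 with the block). Mrps18a, Mrps18b and Mrps18c are 3 relatives of bacterial S18, and Mrps18b and Mrps18c belong to the small subunit. Mrps18a differed by 0.015 on the log2 scale (SE 0.087, adjusted p = 0.929), and its control range of 47.8 to 55.5 CPM overlapped the ICF range of 48.0 to 55.2 CPM. Mrps18b went from 48.7, 45.3 and 48.8 CPM to 51.7, 52.5 and 57.2 CPM without overlap (log2 fold change 0.18, SE 0.057, adjusted p = 0.154, and 0.0269 with the block). Mrps18c had a log2 fold change of 0.13 (SE 0.072, adjusted p = 0.363). Mrps36, the dehydrogenase subunit, had 13.2, 13.7 and 12.4 CPM in the control and 15.2, 15.9 and 11.8 CPM with ICF, with overlap (log2 fold change 0.13, SE 0.14, adjusted p = 0.578).

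The subunits were then compared. The 48 large-subunit genes had a median difference of 0.048 on the log2 scale and the 29 small-subunit genes one of 0.084, a difference of -0.037 (large minus small). In the same-numbered pairs of samples this difference was 0.031, -0.011 and 0.063, with an SD of 0.037. The value of -0.037 was below all 3, and the sign differed among the pairs, so the direction was not settled. The large minus small difference was 0.013 without ICF sample 1 and 0.063 without ICF sample 2. With Mrps30 and Mrps18a counted in the large subunit and Mrps36 left out it was -0.06. Without the block, 2 genes were higher in each subunit (4.17% of the large and 6.90% of the small, against 3.47% of all genes). With the block, 10 were higher and 4 lower in the large subunit (20.8% and 8.33%). In the small subunit 8 were higher and 4 lower (27.6% and 13.8%), and over all genes that fit gave 14.6% higher and 15.3% lower. In the groups by origin, 1 of 30 large-subunit genes with a bacterial homolog rose (median 0.04), as did 1 of 20 specific to mitochondria (median 0.088). Of 16 small-subunit genes with a bacterial homolog 2 rose (median 0.063), and of 10 specific to mitochondria 0 did (median 0.103, with 2 at an unadjusted p under 0.05 and 3 higher with the block). Among these 4 groups, the medians lay within 0.1 of each other on the log2 scale. For all Mrp genes, the median difference between ICF and control was -0.005, 0.111 and 0.055 in pairs 1 to 3 (SD 0.058), so the median of 0.051 was within the spread of the pairs. Against their same-numbered controls, 34 genes were higher in all 3 pairs and 15 were lower in all 3, which is 44.2% and 19.5% of the 77, against 28.3% in either direction over all genes.

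Differences showed little relation to gene length and base composition over the 77 genes, as a description across genes that share the same 6 libraries (Spearman's rho -0.042 with exonic length and 0.019 with GC content). By length, the median log2 fold change was -0.022 in the 26 shortest genes (607 to 1667 bases), 0.099 in the 25 of middle length and 0.04 in the 26 longest. Without the third ICF sample these medians were 0.064, 0.125 and 0.072. The third ICF sample was the lowest of the 6 in 23 of the 77 genes (29.87%), against 28.55% of all genes. With offsets for GC content and length, 10 Mrp genes rose and 1 fell, and over all genes 6.04% rose and 7.04% fell.

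Proteins of the mitochondrial ribosome under other names and the factors around it were examined next, and their counts of calls are to be read against the 3.47% higher and 4.38% lower over all genes. Dap3, Ptcd3, Aurkaip1, Chchd1 and Gadd45gip1 encode ribosomal proteins too, and 0 of these 5 passed (1 at an unadjusted p under 0.05, log2 fold changes from -0.20 to 0.10). The lowest was that of Dap3, a GTP-binding protein of the small subunit, with 169.7, 172 and 146.5 CPM in the control and 144, 147 and 135 CPM with ICF. The groups overlapped (adjusted p = 0.14), and Dap3 fell in the fit with the block (adjusted p = 0.00297). Among 18 translation factors 1 rose and 0 fell (median 0.084). The gene that rose was Gfm1, elongation factor G1, which moves the ribosome along the mRNA. It had 92.1, 97.7 and 93.1 CPM in the control and 110, 108 and 113.5 CPM with ICF (log2 fold change 0.23, SE 0.033, adjusted p = 0.0444, and 0.0562 without the third ICF sample).

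Of 27 assembly factors, 1 rose and 0 fell (median 0.028). Fastkd2, an RNA-binding protein needed for the large-subunit rRNA, had 51.1, 49.0 and 55.0 CPM in the control and 66.1, 63.8 and 73.9 CPM with ICF. Its groups did not overlap (log2 fold change 0.39, SE 0.08, adjusted p = 0.0199), and the fold was 1.31, beside 1.23 for Mrps6. Of 17 mitochondrial aminoacyl-tRNA synthetases, 1 fell and 0 rose (median 0.037). The gene that fell was Iars2, which charges isoleucine, with 103, 102 and 99.6 CPM in the control and 86.5, 83.1 and 84.9 CPM with ICF (log2 fold change -0.26, SE 0.023, adjusted p = 0.0248). Without the third ICF sample Iars2 fell and Cars2, which charges cysteine and was named after its values were seen, rose. None of 19 genes for mitochondrial DNA maintenance, transcription and their regulators passed in the edgeR fit, with 0 at an unadjusted p under 0.05 and 1 higher with the block (median 0.018).

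Genes of the cytosolic ribosome were mostly at lower levels with ICF. The 88 tested had a median of -0.223 (log2 fold change), and 83 of them were below 0, against 28 of the 77 Mrp genes. The list was taken by symbol and also holds entries that are not standard components. Some of these were above 0 (Rps19bp1 and Rpl36a-ps1) and others below 0 (Rps27rt and Rpl9-ps6). In the edgeR fit 7 fell (7.95%, against 4.38% of all genes) and 3 rose (3.41%, against 3.47%), and with the block 67 fell (76.1%, against 15.3%) and 3 rose (3.41%, against 14.6%). Without the third ICF sample 4 fell and 3 rose in the fit without the block. The 3 that rose, named after their values were seen, were Rpl10l (0.59), Rps27l (0.35) and Rpl7l1 (0.31), which are relatives of ribosomal protein genes rather than standard components. Relatives also fell, namely Rpl22l1 (-0.43), which had the lowest log2 fold change of the 7 that fell, and Rpl39l without the third ICF sample. The third ICF sample was the lowest of the 6 in 77.27% of these genes, and without it their median was -0.155, when that of the Mrp genes was 0.079. With GC and length offsets it was -0.189. In sum, cytosolic ribosomal protein mRNAs amounted to 54800 ± 4866 CPM in the control and 47450 ± 2873 CPM with ICF (SD, n = 3).

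Targets and partners of the mitochondrial ribosome were the last group. Of 81 nuclear genes for respiratory chain and ATP synthase subunits, 0 rose and 3 fell (3.70%, against 4.38% of all genes), and the median was -0.062 (-0.009 without the third ICF sample). The 3 were Ndufa4l2 (log2 fold change -4.41) and Cox4i2 (-2.57), both known as genes induced by low oxygen, and Ndufv3 (-0.48), a subunit of complex I. Without that sample Ndufv3 did not pass (adjusted p = 0.063), and Cox6b2, a form of a cytochrome oxidase subunit, rose. Of the 10 tested genes for proteins made by the mitochondrial ribosome itself, mt-Cytb (0.62) and mt-Nd5 (0.34) rose and mt-Nd6 (-1.10) fell, and the median of 0.173 changed to 0.08 without the third ICF sample. These 7 genes were also named after their values were seen.

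**Figure D4:**
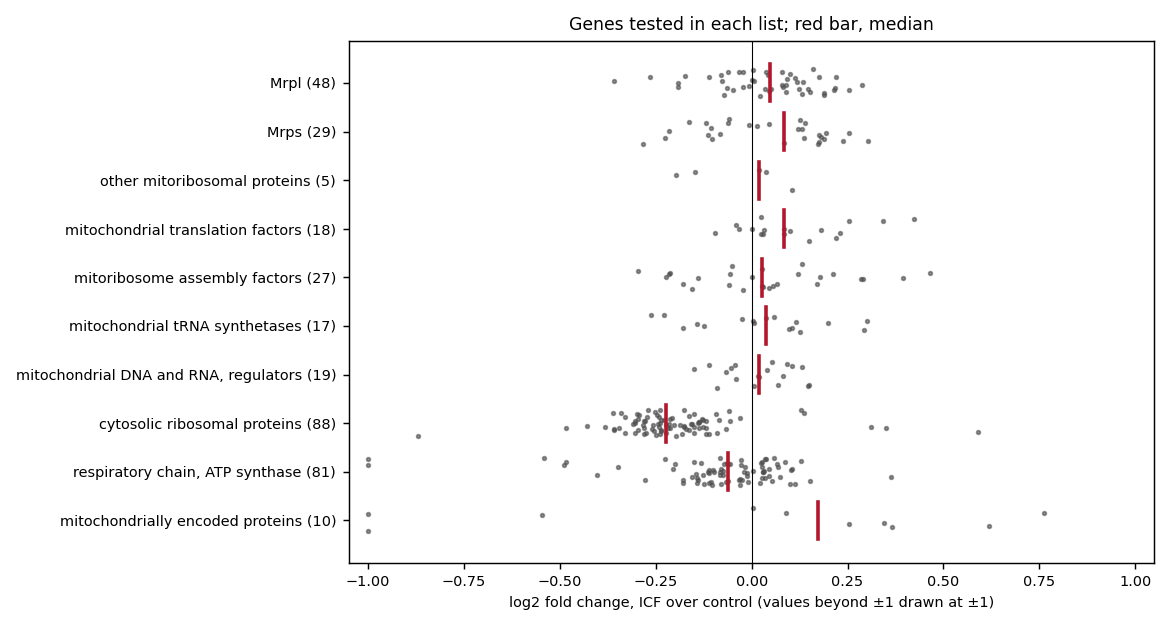
Log2 fold change of ICF over control for every tested gene of each list (points, with the number of genes in parentheses) and the list's median (red bar), with values beyond 1 in either direction drawn at the edge. The Mrpl and Mrps genes lie on both sides of 0 with medians of 0.048 and 0.084, while 83 of 88 cytosolic ribosomal protein genes lie below 0.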

How the data were processed

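RNA sequencing measured mRNA in 3 control and 3 ICF samples. The authors prepared strand-specific mRNA libraries, filtered the reads with Trimmomatic, aligned them with HISAT2 and deposited HTSeq counts per gene, whole numbers without normalization. Tool versions and the counting options are not given in the sources used here. The HTSeq tally rows of reads assigned to no gene (38.08% to 40.29% of each file) were left out. Of the 50686 identifiers, 50462 were found in GENCODE M21 (GRCm38), which gave symbols, coordinates, GC content and exon length. The 5 Mrp pseudogenes were excluded, and ribosomal S6 kinases were left out of the cytosolic ribosomal proteins. Other protein-coding entries with matching symbols, such as Rps19bp1 and gene copies, were kept in that list.

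The counts of 16729 genes, kept by filterByExpr on the groups and scaled by TMM, were tested by the quasi-likelihood functions of edgeR 4.0.16 (R 4.3.3), with Benjamini-Hochberg adjustment at 0.05. Standard errors come from the SDs of log2 CPM and not from the fit. The procedure was checked on simulated counts, with planted changes larger than any seen in the Mrp genes and no replicate effect. The check therefore does not cover changes of the size found here. Donor numbers in the labels pair the samples, and after subtraction of each group's mean the log2 values of samples with 1 number correlated at 0.129, 0.175 and 0.322. Samples 1 and 2 correlated as well across numbers (0.23 and 0.147), so the values set apart only number 3 (-0.201 to -0.306 with the others), and the pairing of 1 and 2 rests on the labels. Within a group, the median chi-square of a gene's counts between samples 1 and 2 was 0.966 in the control and 1.04 with ICF. Against sample 3 it was 2.68 to 4.91. The SDs take samples 1 and 2 as independent, which was not tested. The other fits were edgeR with the replicate number as a block, DESeq2 1.42.0 with and without it, RLE size factors, filters of at least 1 count in any or 10 in every sample, GC and length offsets, the third ICF sample divided by 4, and each sample left out in turn. The block without replicate 3 was added after seeing the data. The members, the gene lists and the tests were chosen with earlier results of these data known.

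Named genes were those past the threshold, the 5 largest rises and 5 largest falls in each subunit with a mean of at least 100 counts, the 3 highest and 3 lowest control levels, genes that failed the filter, Mrps30, Mrps18a, Mrps18b, Mrps18c and Mrps36, and up to 3 genes past the threshold in each listed pathway. Shared reads were counted as 75-base stretches of the longest transcript found on the same strand in another gene.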

Additional observations from a re-analysis of the deposited data

How the results depend on the processing

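The median log2 fold change of the Mrp genes stayed above 0 under every alternative run (0.042 to 0.067, and 0.021 to 0.093 with 1 sample left out). Counts of calls depended on the processing. Genes higher and lower with ICF numbered 4 and 0 in edgeR without the block, 18 and 8 with the replicate block, 9 and 7 with DESeq2 with the block, 10 and 1 with GC and length offsets, 21 and 7 with offsets and block, and 13 and 5 with the block but without replicate 3. Over all genes, calls higher and lower moved too, from 3.47% and 4.38% to 14.6% and 15.3%, 4.55% and 5.6%, 6.04% and 7.04%, 15.3% and 16.6%, and 12.8% and 14.0% in these fits. Higher large-subunit genes went from 2 to 10, 6, 7, 12 and 7 in these fits in that order, and lower ones from 0 to 4, 3, 0, 1 and 2. Higher small-subunit genes went from 2 to 8, 3, 3, 9 and 6, and lower ones from 0 to 4, 4, 1, 6 and 3. The shares of all genes given for DESeq2 with the block (1354 and 1666 genes) are of 29738 genes with any count. Those of the edgeR fits are of 16729 genes past the filter (16893 without replicate 3), so the DESeq2 shares are not comparable with them. In DESeq2 without the block and with a filter of 1 count in any sample, 1 gene fell (Mrpl57, in the large subunit), and with that filter 1 small-subunit gene rose. With 1 sample left out, 0 to 4 genes rose (0 to 3 large-subunit, 0 to 1 small-subunit) and 0 fell, the large minus small median ranged from -0.05 to 0.063, and the log2 fold change of Mrps18a from -0.037 to 0.079. The cause was not tested, except that leaving out a sample reduces the design. RLE size factors, a filter of 10 counts and division of the third ICF sample by 4 gave 4 to 5 higher and 0 lower. The 4 genes that rose were shared with each fit on 6 samples except that of the 1-count filter, which lost Mrps6. The 3 samples per group and the odd counts of the third ICF sample limit the precision.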
